A study of Mus musculus with 6 samples.

Results

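Transcripts of iron-sulfur cluster assembly and iron handling were followed in mouse hematopoietic stem cells of 2 side population fractions, Lower-SP and Upper-SP. With earlier results of these data known, 9 genes were chosen by name for their function. They are Hscb, Iscu, Nfs1, Glrx5, Isca1, Isca2, Lyrm4, Tfrc and Fth1, of 18194 genes with a single-symbol probe set on the array. Every probe set annotated to one of them alone was taken, which gave 18 of 45101 probe sets. Of these, 12 exceeded log2 4 on 3 or more of the 6 arrays and were tested, and each of the 9 genes had at least 1 tested probe set. None of the 12 reached that level through Upper-SP alone.

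Both fractions, Lower-SP and Upper-SP, came from male C57Bl/6 (CD45.1) mice, 10-weeks old, whose bone marrow cells were sorted as Lineage-, Sca-1+, c-Kit+ side population cells. The side population holds cells that pump out a DNA dye, and the 2 gates divide it into its lower and its upper part. Each fraction was measured on 3 arrays, described as biological replicates from pools of mice sorted on separate days, with no treatment other than the sort given in the labels. RNA was amplified through repeated rounds of in vitro transcription before hybridization. Values are log2 expression, differences are Lower-SP minus Upper-SP, and each group mean is given ± SD (n = 3).

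Iron-sulfur clusters are cofactors of respiratory chain subunits, DNA helicases and polymerases and other enzymes. In mitochondria a cysteine desulfurase delivers sulfur to a scaffold protein, on which the cluster forms. A dedicated chaperone pair then releases the cluster to carrier proteins, which pass it on. The iron comes mainly through the transferrin receptor, and what is not used is stored in ferritin. Stem cells and their erythroid descendants depend on this supply, and free iron promotes oxidative damage.

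Between 19317 and 19666 probe sets per array lay above log2 4. Precision is limited by the small number of arrays. Correlation across probe sets was 0.952 to 0.991 for arrays of the same fraction, and 0.911 to 0.938 for arrays of different fractions. The sum of the signals of 8 annotated stem cell marker genes, among them Kit, Procr and Meis1, lay at log2 14.79 to 14.90 in Lower-SP and at 14.83 to 14.88 in Upper-SP. That sum is carried by the brightest genes: of the 8, Kit fell by 0.92 (limma, adjusted p = 0.014) and Cd34 by 1.41 (0.003), while the 6 others did not pass. Neutrophil markers were uneven: the sum of 12 genes read log2 14.06, 13.44 and 9.97 in Lower-SP against 9.12, 9.46 and 8.0 in Upper-SP. Of those 12, S100a8 (4.17), S100a9 (3.90), Lcn2 (3.84) and Chil3 (4.65) were called higher (limma, adjusted p = 0.016, 0.03, 0.026 and 0.018). Lcn2 and Chil3 exceeded log2 4 on Lower-SP arrays only. Ngp, Camp and Ltf did not pass, and Mmp8, Mmp9 and Mpo were not tested. Cxcr2 and Elane stayed under log2 4 on every array. The plasma and B cell sum of 8 genes went the other way. It read 9.91, 9.58 and 7.24 in Lower-SP and 12.51, 12.68 and 11.44 in Upper-SP. Most of the Upper-SP sum came from Igha. Igha read 9.40, 8.99 and 4.70 in Lower-SP against 12.43, 12.60 and 11.31 in Upper-SP, and was called lower (-4.42, limma, adjusted p = 0.024). Jchain (-1.82), Cd79b (-0.37) and Ms4a1 (0.42) did not pass. The other 4 (Mzb1, Tnfrsf17, Derl3 and Cd79a) were under log2 4 on every array. For 8 macrophage genes the sum was 7.89 to 10.04 in Lower-SP and 8.44 to 9.75 in Upper-SP. Of these, Csf1r was called higher (1.06, limma, adjusted p = 0.023), and Vcam1, C1qa, C1qb and Mrc1 did not pass. For 6 T and NK cell genes the sum was 6.12 to 6.77 in Lower-SP and 6.95 to 7.35 in Upper-SP. Only Nkg7 of these exceeded log2 4 on any array, and it was called lower (-1.14, limma, adjusted p = 0.033). Of 8 annotated erythroid genes 7, among them Hba-a1, Klf1, Alas2 and Gata1, were under log2 4 on all 6 arrays, and the sum lay at 5.68 to 6.60 in Lower-SP and at 5.85 to 6.14 in Upper-SP. The part of the neutrophil, plasma and B cell signals in the differences below was not tested.

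Lower-SP arrays gave less signal for the scaffold Iscu, the co-chaperone Hscb and Lyrm4 of the desulfurase complex. The desulfurase Nfs1, Isca1 and the ferritin heavy chain were each called lower at only 1 of their probe sets. The transferrin receptor and Glrx5 showed no difference past the test. Of the 12 tested probe sets 6 were called lower and 0 higher (limma, adjusted p under 0.05, with 10 at an unadjusted p under 0.05). Over all 19613 tested probe sets 28.1% were called, 17.5% lower and 10.7% higher, and 8182 had an unadjusted p under 0.05 (limma). The 6 called probe sets belong to 6 genes, Hscb, Iscu, Nfs1, Isca1, Lyrm4 and Fth1. In 9 of the 12 all 3 Lower-SP values lay under all 3 Upper-SP values, as they did in 27.9% of all tested probe sets (46.1% with separate groups in either direction). The difference was negative at all 12 with the deposited scaling, although Glrx5 and Tfrc turned positive with cyclic loess (0.04 and 0.12). The median of the 12 was -0.88, against -0.14 over all tested probe sets. Because the 9 genes were chosen with earlier results of these data known, these shares and medians are descriptions only. Without Upper-SP replicate 1 the count of called members was 0 (7 at an unadjusted p under 0.05, limma), without Upper-SP replicate 2 it was 2, and without Lower-SP replicate 2 it was 3. With unmoderated statistics from limma it was 0 (5 at an unadjusted p under 0.05), and with no filter on low values it was 1. The count over all probe sets, 5520, was 1666, 2623 and 3114 without those 3 arrays, 1967 with unmoderated statistics and 2931 with no filter. At an unadjusted p under 0.05 (limma) it was 5914 without Upper-SP replicate 1 and 6749 with unmoderated statistics.

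**Figure D1:**
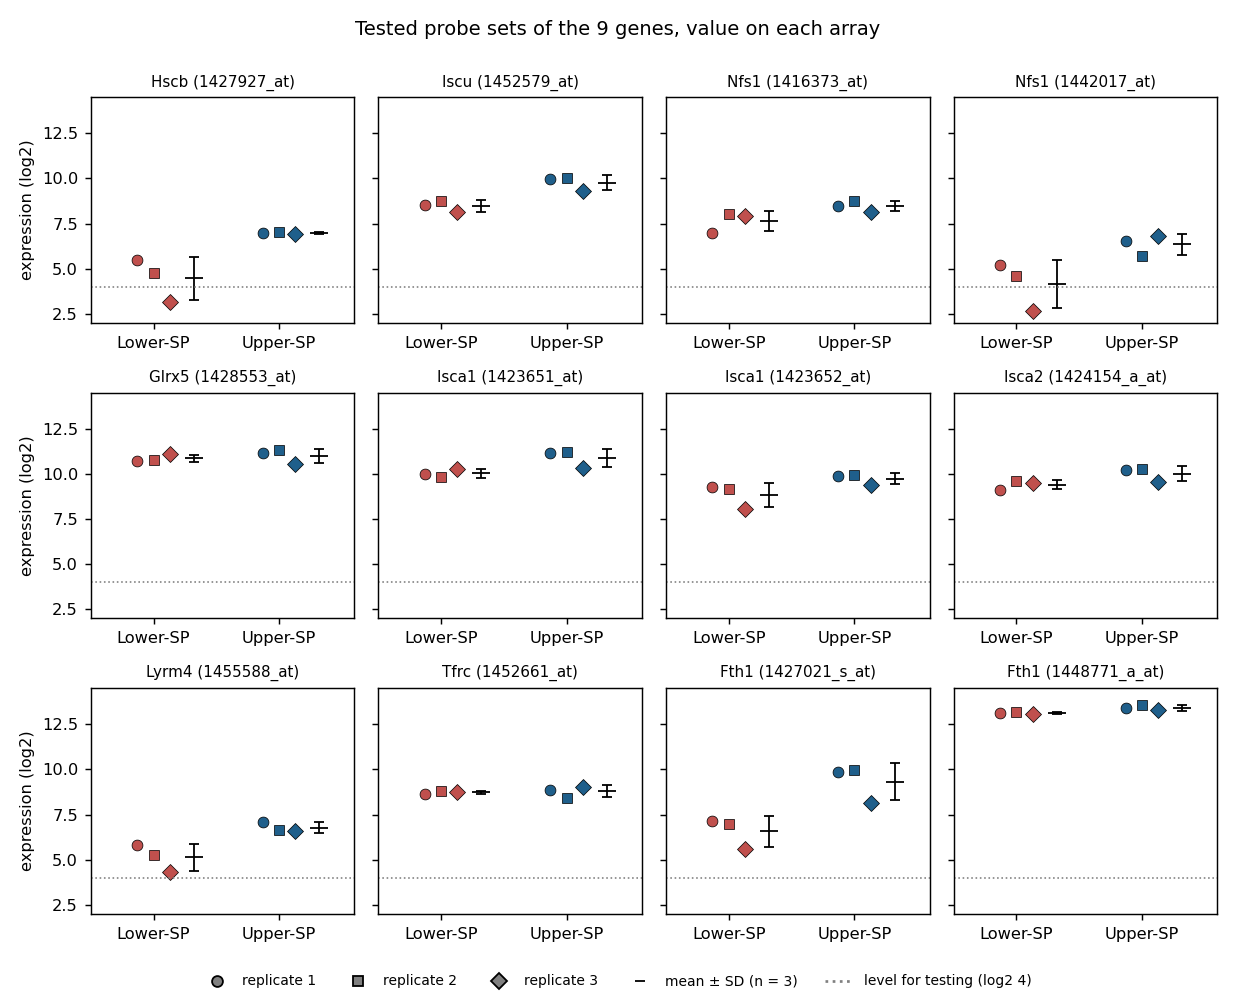
Log2 expression (vertical axis) of the 12 tested probe sets on each array, with 3 Lower-SP arrays on the left and 3 Upper-SP arrays on the right of each panel. Symbols mark the replicate, the bars are mean ± SD (n = 3) and the dotted line is log2 4. The groups overlap at Isca2, Tfrc and Glrx5 and are apart at the other 9 probe sets. The gap is smallest at 1423651_at of Isca1 (0.03) and largest at Hscb (1.44).

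Hscb encodes the J-domain co-chaperone that brings the scaffold with its finished cluster to the mitochondrial HSP70, so that the cluster can be handed on. Its 1 probe set read 5.46, 4.79 and 3.14 in Lower-SP against 6.99, 7.06 and 6.90 in Upper-SP. The Upper-SP arrays lay within 0.16 of each other, the Lower-SP arrays were spread over 2.33, and replicate 3 was below log2 4. The highest Lower-SP array was still 1.44 under the lowest Upper-SP array. Hscb fell by 2.52 (SE 0.53, 5.75-fold, limma, adjusted p = 0.013), to 4.46 ± 1.20 in Lower-SP against 6.99 ± 0.08 in Upper-SP. That difference was the 28th most negative of the 19613 tested. With the array under log2 4 set to 4, the fold was 4.71. Without Lower-SP replicate 3 the difference was -1.86 (3.63-fold, adjusted p = 0.0046). The call was lost without Upper-SP replicate 1 (-2.52, adjusted p = 0.063).

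Iscu is the scaffold on which the cluster is built. It read 8.53, 8.75 and 8.13 in Lower-SP against 9.96, 10.04 and 9.29 in Upper-SP, at 1 probe set. All 6 values were well above log2 4 and the groups were separated by 0.54. Iscu fell by 1.30 (SE 0.26, 2.46-fold, limma, adjusted p = 0.011), with 8.47 ± 0.31 in Lower-SP and 9.77 ± 0.41 in Upper-SP. With cyclic loess the difference was -1.12 (adjusted p = 0.018). Without Upper-SP replicate 1 it was -1.20, with an adjusted p of 0.061.

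Nfs1, the cysteine desulfurase that takes sulfur from cysteine, was represented by 3 probe sets. The brightest, 1416373_at, which is annotated to a RefSeq mRNA, read 6.98, 8.02 and 7.90 in Lower-SP against 8.50, 8.73 and 8.17 in Upper-SP. The groups were 0.14 apart, with Lower-SP replicate 1 the lowest array, and the difference of -0.83 (SE 0.31) did not pass (limma, adjusted p = 0.082). The dimmer 1442017_at read 5.19, 4.58 and 2.67 in Lower-SP against 6.54, 5.68 and 6.83 in Upper-SP. Here Lower-SP replicate 3 was the lowest and lay under log2 4. This probe set fell by 2.21 (SE 0.63, adjusted p = 0.035), and the fold was 3.39 with the array under log2 4 set to 4. The call rests on several single arrays: the adjusted p was 0.068 without Lower-SP replicate 2 and 0.12, 0.057 and 0.099 without Upper-SP replicates 1, 2 and 3. Without Lower-SP replicate 3 the difference was -1.47. The third, 1431431_a_at, stayed between 1.99 and 2.07 on the 6 arrays and was not tested.

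Lyrm4 encodes the small LYR-motif protein, ISD11 in human, that holds the desulfurase in a stable complex. It read 5.82, 5.24 and 4.33 in Lower-SP against 7.11, 6.65 and 6.57 in Upper-SP, at 1 probe set. The groups were 0.74 apart, and Lower-SP replicate 3 was again the lowest array. Lyrm4 fell by 1.64 (SE 0.39, 3.13-fold, limma, adjusted p = 0.019), with 5.13 ± 0.76 in Lower-SP and 6.77 ± 0.29 in Upper-SP. The call was lost, with differences of -1.70, -1.48 and -1.71, without Lower-SP replicate 2 (adjusted p = 0.054), Upper-SP replicate 1 (0.090) and Upper-SP replicate 2 (0.057).

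Isca1 and Isca2 form the A-type carrier pair that makes the clusters of the larger kind for mitochondrial enzymes. Isca1 had 2 tested probe sets. At 1423651_at it read 9.97, 9.83 and 10.29 in Lower-SP against 11.14, 11.20 and 10.33 in Upper-SP, so that Lower-SP replicate 3 and Upper-SP replicate 3 were 0.03 apart. It fell by 0.86 there (SE 0.25, 1.81-fold, limma, adjusted p = 0.039). That call was lost with cyclic loess (-0.66, adjusted p = 0.072), with quantile normalization (-0.69, 0.063), and without Lower-SP replicate 1 (-0.83, 0.099), Lower-SP replicate 2 (-0.76, 0.12), Upper-SP replicate 1 (-0.73, 0.15) or Upper-SP replicate 2 (-0.70, 0.13). At 1423652_at Isca1 read 9.29, 9.16 and 8.07 in Lower-SP against 9.90, 9.94 and 9.37 in Upper-SP. The groups were 0.08 apart, and the difference of -0.90 (SE 0.34) did not pass (adjusted p = 0.082). It was -0.51 without Lower-SP replicate 3. The 2 probe sets thus gave near-equal differences, with Lower-SP replicate 3 the highest of its group at one and the lowest at the other.

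Isca2 read 9.11, 9.59 and 9.51 in Lower-SP against 10.24, 10.26 and 9.54 in Upper-SP. Upper-SP replicate 3 lay within the Lower-SP range. The difference of -0.61 (SE 0.24, 95% interval -1.16 to -0.06) did not pass (limma, adjusted p = 0.090), and without Upper-SP replicate 3 it was -0.85 and passed (0.021). Glrx5, the monothiol glutaredoxin that takes the cluster over from the scaffold, read 10.73, 10.75 and 11.09 in Lower-SP against 11.14, 11.32 and 10.56 in Upper-SP. The groups overlapped, and the difference was -0.15 (SE 0.21, 95% interval -0.65 to 0.34, adjusted p = 0.61). This interval excludes a fall as large as those fitted for Hscb, Lyrm4 or Iscu, but the differences between the genes were not tested.

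Tfrc encodes the transferrin receptor, through which cells take up iron. Its bright probe set, 1452661_at, read 8.63, 8.79 and 8.76 in Lower-SP against 8.87, 8.41 and 9.05 in Upper-SP. The Lower-SP arrays all lay within the Upper-SP range, and the difference was -0.05 (SE 0.20, 95% interval -0.52 to 0.42, limma, adjusted p = 0.87). Its sign changed with each other scaling: 0.12 with cyclic loess, 0.08 with quantile normalization and 0.04 with centring on the median. The 5 other Tfrc probe sets were not tested. Of these, 1422966_a_at read 3.42, 3.44 and 3.44 in Lower-SP against 4.26, 4.18 and 3.63 in Upper-SP, near the level for testing, and 1422967_a_at stayed between 2.52 and 2.78. The 3 Tfrc control probe sets, placed by the manufacturer at the 5′ end, the middle and the 3′ end of the transcript, read at most 3.04, 3.43 and 4.01.

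Fth1 encodes the ferritin heavy chain, whose ferroxidase activity loads iron into the storage shell. Its 2 probe sets differed in how much they moved. At 1427021_s_at it read 7.13, 6.98 and 5.60 in Lower-SP against 9.87, 9.95 and 8.14 in Upper-SP. Replicate 3 was the lowest array of each fraction, and the groups were 1.01 apart. This probe set fell by 2.75 (SE 0.57, 6.74-fold, limma, adjusted p = 0.013), the 16th most negative difference of the 19613 tested. Without Upper-SP replicate 1 the difference was -2.48 (adjusted p = 0.067), without Upper-SP replicate 2 it was -2.44 (0.051) and without Upper-SP replicate 3 it was -3.34 (0.0074).

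The brighter Fth1 probe set, 1448771_a_at, annotated to a RefSeq mRNA, read 13.10, 13.15 and 13.06 in Lower-SP against 13.40, 13.58 and 13.26 in Upper-SP. The groups were 0.11 apart. The difference of -0.31 (SE 0.10, 95% interval -0.55 to -0.07, 1.24-fold) did not pass (limma, adjusted p = 0.056), and it was -0.39 and passed without Upper-SP replicate 3 (0.026). With cyclic loess it was -0.11. Read through this brightest probe set, Fth1 was not called. The suffix of 1427021_s_at marks probes that match more than 1 transcript. Ferritin heavy chain has many processed copies in the genome, so which transcripts 1427021_s_at measured is uncertain.

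**Figure D2:**
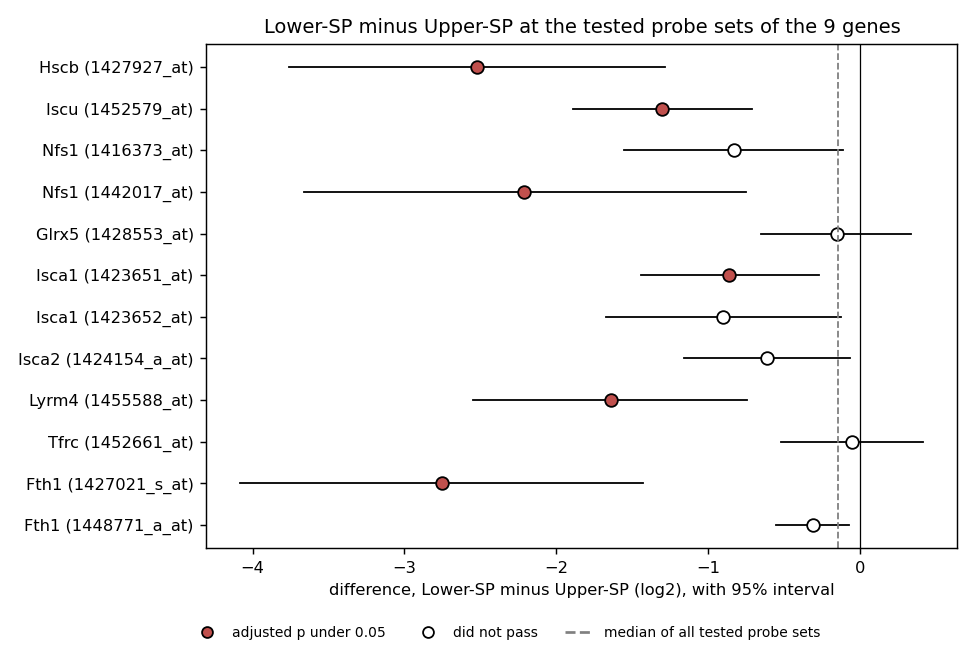
Difference of Lower-SP minus Upper-SP (horizontal axis, log2) for the 12 tested probe sets, as points with their 95% intervals from limma. Filled points passed at an adjusted p under 0.05, and the dashed line is the median of all tested probe sets, -0.14. The intervals of Tfrc (-0.52 to 0.42) and Glrx5 (-0.65 to 0.34) span 0, and those of the 2 Fth1 probe sets (-4.08 to -1.43 and -0.55 to -0.07) do not overlap.

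Upstream sequence is shown for 4 of the genes with a called probe set. Of these, Nfs1 and Fth1 were not called at their brightest probe set. The 250 bases before a RefSeq transcription start are given 5′ to 3′ on the strand of the gene (GRCm38.p6). Windows of 7 of the 9 genes were matched, 9 windows in all, and Hscb and Iscu are named only. Capitals mark, on either strand, the ETS core CCGGAAG, the CCAAT box, the GC box GGGCGG and the antioxidant response element core TGACNNNGC. For Lyrm4 the window is chr13:36117358-36117607 (minus strand), for Nfs1 chr2:156144187-156144436 (minus strand), for Isca1 chr13:59769790-59770039 (minus strand) and for Fth1 chr19:9982396-9982645 (plus strand).
Lyrm4: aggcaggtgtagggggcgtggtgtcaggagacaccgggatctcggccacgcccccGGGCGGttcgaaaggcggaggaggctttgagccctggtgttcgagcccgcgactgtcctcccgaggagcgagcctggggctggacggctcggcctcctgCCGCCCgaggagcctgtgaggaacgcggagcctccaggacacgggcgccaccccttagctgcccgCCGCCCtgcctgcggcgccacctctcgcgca
Nfs1: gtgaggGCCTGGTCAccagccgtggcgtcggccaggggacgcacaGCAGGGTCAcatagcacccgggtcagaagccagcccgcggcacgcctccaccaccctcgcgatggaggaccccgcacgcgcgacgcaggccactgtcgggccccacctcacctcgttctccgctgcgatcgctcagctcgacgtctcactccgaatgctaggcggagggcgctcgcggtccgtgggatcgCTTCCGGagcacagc
Isca1: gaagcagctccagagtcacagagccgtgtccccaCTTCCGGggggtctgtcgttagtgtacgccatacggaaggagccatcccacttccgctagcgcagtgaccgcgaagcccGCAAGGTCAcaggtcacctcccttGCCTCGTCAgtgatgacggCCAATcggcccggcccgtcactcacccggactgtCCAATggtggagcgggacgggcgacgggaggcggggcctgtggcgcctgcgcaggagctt
Fth1: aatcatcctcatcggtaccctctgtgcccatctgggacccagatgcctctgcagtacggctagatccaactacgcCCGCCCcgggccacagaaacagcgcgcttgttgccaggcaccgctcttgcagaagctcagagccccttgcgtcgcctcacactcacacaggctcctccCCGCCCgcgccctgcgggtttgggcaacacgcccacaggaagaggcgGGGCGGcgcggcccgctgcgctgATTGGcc
The ETS core stood in 3 of the 9 windows (Nfs1, Isca1 and Isca2) and in 6.91% of the 32851 windows of the same length. CCAAT stood in 5 (Glrx5, Isca1, Isca2, Tfrc and Fth1) against 33.8%, and GGGCGG in 4 (Isca2, Lyrm4, Tfrc and Fth1) against 32.7%. The antioxidant response element core stood in 2 (Nfs1 and Isca1) against 10.2%. The printed Lyrm4 and Fth1 windows hold 3 GC boxes each. No letter pattern searched was shared by the 4 printed windows. The base composition was GC-rich, at 66.4% to 72.8% G and C in the 4 printed windows. The other Fth1 window, not printed, had 34.8% G and C and none of the patterns.

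Across arrays, the called members did not all have 1 common profile. Lower-SP replicate 3 was the lowest of its fraction at the called probe sets of Hscb, Iscu, Nfs1, Lyrm4 and Fth1. At that of Isca1 it was the highest. Among all probe sets called lower, it was the lowest of its fraction at 34.9%. At 7 of the 12 tested probe sets Lower-SP replicate 3 was the lowest of its fraction (36.0% of all tested probe sets). Upper-SP replicate 3 was the lowest of its fraction at 10 of the 12 (45.3% of all). Lower-SP replicate 3 is also the Lower-SP array with the lowest sums of neutrophil, macrophage, plasma and B cell, and T and NK cell markers. Upper-SP replicate 3 has the lowest sums of the same lists in its fraction. The erythroid sum was lowest on neither (5.71 and 6.14). Fewer cells of one kind and less RNA per cell cannot be told apart in such bulk samples.

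**Figure D3:**
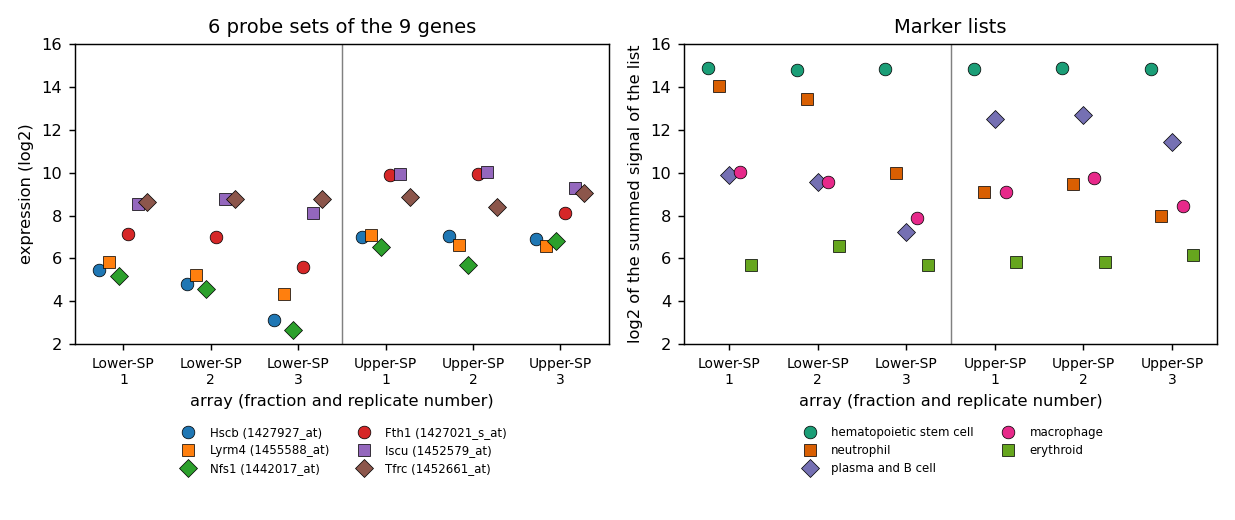
Left, log2 expression of 6 probe sets of the 9 genes on each array. Right, log2 of the summed signal of the marker lists of 5 cell types on the same arrays, with the 3 Lower-SP arrays left of the line. Hscb, Lyrm4, Iscu, 1442017_at of Nfs1 and 1427021_s_at of Fth1 are lowest on Lower-SP replicate 3, where the neutrophil sum (9.97) is the lowest of its fraction, and Tfrc lies between 8.41 and 9.05 throughout.

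The pattern of Hscb over the 6 arrays was set against that of the other 9459 tested genes, each centred on its own mean and compared by the root mean square difference (log2). The 5 nearest were Map3k20 (0.09), Npff (0.27), Nemp2 (0.31), Tmem254a (0.34) and Postn (0.37), and the median over all genes was 1.38. Map3k20 read 6.38, 5.87 and 4.18 in Lower-SP against 7.89, 7.87 and 7.84 in Upper-SP. Among the iron genes Lyrm4 (0.54) and Iscu (0.85) were nearest to Hscb, and Glrx5 (1.44) and Tfrc (1.45) were farthest, each at its brightest probe set.

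The other genes of the pathway were read from 5 lists of 94 genes, of which 84 had an annotated probe set and 69 were tested, each at its brightest probe set. Of the 69, 15 were lower and 2 higher (limma, adjusted p under 0.05). Among all 9460 tested genes 27.7% were called, 20.7% lower and 7.05% higher. Their median was -0.39, against -0.24 over all genes. Read the same way, 4 of the 9 genes (Hscb, Iscu, Isca1 and Lyrm4) were lower, with a median of -0.83. Cyclic loess raised the median of all genes by 0.12, to -0.12, and left 11 of the 69 lower and 2 higher. Of all 9460 tested genes, cyclic loess left 1372 lower and 923 higher. With it, the share of called genes that were higher went to 40.2%, beside 25.4% with the deposited scaling. Without Upper-SP replicate 1, 2 of the 69 were called, without Upper-SP replicate 2, 9, and without Lower-SP replicate 2, 11. The count over all genes, 2625, was 695, 1185 and 1407 without those 3 arrays. The count among the 69 also depends on the probe set read: 7 of the genes not called at their brightest probe set had another that was called, each of them lower. The matching share over all genes is not given here, so these 7 cannot be set against it. Besides the 3 described with their lists below, these were 1416512_at of Nubp2 (-0.73), 1431305_at of Mcoln1 (-2.03), 1418700_at of Lias (-0.78) and 1448187_at of Pold1 (-0.72).

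Of 9 tested genes of mitochondrial cluster assembly, 2 were lower and 0 higher, with a median of -0.41. Nubpl, the assembly factor of respiratory complex I, fell by 1.67 (SE 0.43), reading 6.08, 5.03 and 5.95 in Lower-SP against 7.49, 6.58 and 7.99 in Upper-SP. Bola3, which acts with late carrier proteins, fell by 0.74 (SE 0.19) at its brightest probe set and by 1.01 at another. The call at the brighter one was lost with cyclic loess (adjusted p = 0.067). The 7 that did not pass ran from -0.56 to 0.47 at their brightest probe sets. The lowest of them was Nfu1, a late-acting cluster carrier, whose other probe set, 1418228_at, fell by 2.97 (SE 0.36, adjusted p = 0.0028). That probe set read 3.74, 2.72 and 2.85 in Lower-SP against 6.34, 6.37 and 5.51 in Upper-SP, so it reached the level for testing through Upper-SP alone.

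Of 10 genes of the cytosolic assembly machinery, 3 were lower and 0 higher, with a median of -0.50. Ciao2b, a subunit of the complex that delivers clusters to target proteins, fell by 1.08 (SE 0.22, limma, adjusted p = 0.012), with 8.72, 9.15 and 8.76 in Lower-SP against 10.11, 10.19 and 9.56 in Upper-SP. Mms19, the adaptor of the same complex for DNA repair and replication enzymes, fell by 1.64 (SE 0.44), with 2 of its 3 Lower-SP arrays under log2 4 (2.35-fold with these set to 4). Nubp1, part of the cytosolic scaffold, fell by 0.69 (SE 0.18), a call lost with cyclic loess (adjusted p = 0.057). Its other probe sets differed by -0.84, which passed, and by -0.30, which did not.

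Of 11 tested genes of iron uptake, storage and export, 3 were lower and 0 higher, with a median of -0.54. Tfr2, the second transferrin receptor, fell by 0.54 (SE 0.09, limma, adjusted p = 0.0070), with 12.32, 12.25 and 12.44 in Lower-SP against 12.91, 12.85 and 12.87 in Upper-SP, and by 0.83 at another probe set. Pcbp1 and Pcbp2, RNA-binding proteins that also act as iron chaperones and load ferritin, fell by 0.73 and 0.77 (SE 0.15 and 0.16, adjusted p = 0.013 and 0.012). Another probe set of Pcbp2 differed by -0.36 and did not pass. All 3 genes also passed with cyclic loess.

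Of 7 genes of iron-responsive regulation, 1 was higher and 1 lower, with a median of -0.26. Epas1, the hypoxia-inducible factor whose translation iron regulatory proteins can restrain, rose by 1.25 (SE 0.27, limma, adjusted p = 0.015), with 7.79, 7.04 and 7.53 in Lower-SP against 6.33, 6.39 and 5.88 in Upper-SP. Zfp36l1, of a family that destabilizes mRNAs with AU-rich elements, fell by 0.89 (SE 0.18). The 5 others, among them the iron regulatory proteins themselves, ran from -0.67 to 0.60 and did not pass.

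Of 32 tested genes of proteins that carry iron-sulfur clusters, 6 were lower and 1 higher, with a median of -0.33. Rtel1, a DNA helicase of telomere maintenance, fell by 1.80 (SE 0.22, 3.47-fold, limma, adjusted p = 0.0029), with 5.85, 5.67 and 5.57 in Lower-SP against 7.60, 7.62 and 7.27 in Upper-SP. Dph2 and Dph1, the pair that starts diphthamide synthesis on elongation factor 2, fell by 1.50 (SE 0.37, with 1 Lower-SP array under log2 4) and by 0.96 (SE 0.29). Dph1 was not called with cyclic loess (adjusted p = 0.053). Ppat, the first enzyme of purine synthesis, rose by 0.91 (SE 0.23), with 0.58 at another probe set, which did not pass. The respiratory subunits Sdhb (-0.66) and Uqcrfs1 (-0.78), named after their values were seen, were lower as well. The 25 that did not pass include all 5 tested cluster-bearing subunits of complex I, at -0.63 to 0.32 at their brightest probe sets, but other probe sets of Ndufs7 (1451312_at, -0.92) and Ndufv1 (1415967_at, -0.83) were called lower.

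**Figure D4:**
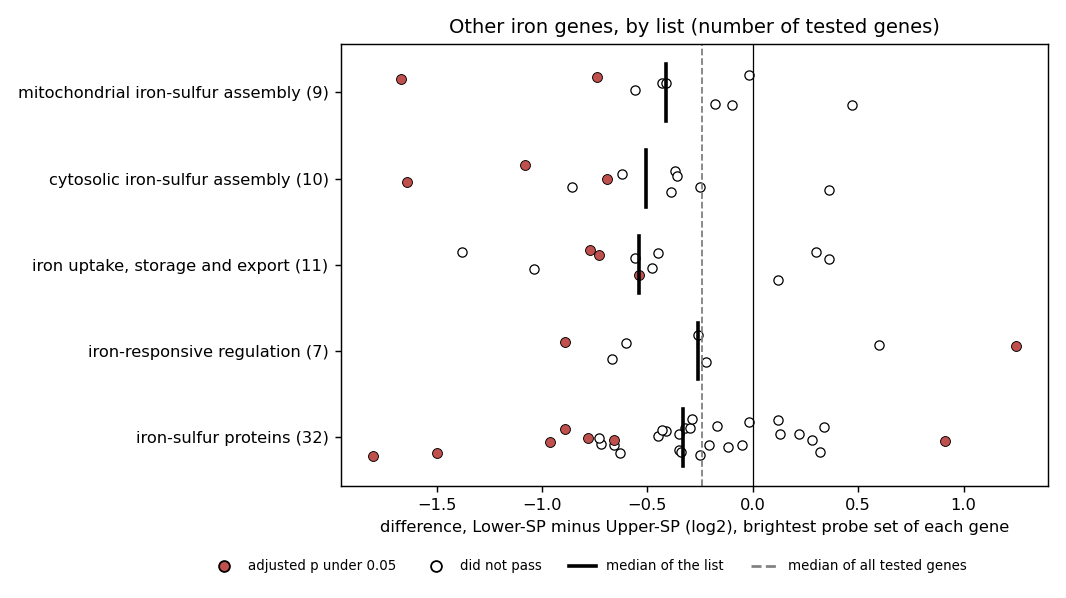
Difference of Lower-SP minus Upper-SP (horizontal axis, log2) for 69 genes in 5 lists, 1 point per gene at its brightest probe set, spread vertically for legibility. Filled points passed at an adjusted p under 0.05, thick bars are list medians and the dashed line is the median of all tested genes (-0.24). The medians of the 5 lists lie between -0.54 and -0.26.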

How the data were processed

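The deposited table holds log2 expression values, which the authors summarized from Affymetrix mouse arrays with GCRMA and GCOS 1.0, per the submitters' processing notes. GCRMA corrects background by probe sequence, scales arrays together and summarizes each probe set, so low values are compressed toward a floor. The genome build was not given in the sources used here. No array was left out, and 0 pairs were identical.

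Probe sets were joined to genes through the annotation table of the array: without 64 control probe sets, 34945 of 45037 had 1 symbol, 932 several and 9160 none. All 9 genes were matched by Entrez ID to current symbols. Probe sets above log2 4 on at least 3 of 6 arrays were tested (19613) in R 4.3.3 with limma 3.58.1 (lmFit, eBayes with trend, two-sided, with 4 residual and 3.80 prior degrees of freedom), on all 6 arrays without a block, with Benjamini-Hochberg adjustment over all tested probe sets and a threshold of 0.05. SE and intervals are moderated. Each gene was represented by the brightest of its tested probe sets with 1 symbol (9460 genes, median SE 0.235). Marker sums are log2 of summed linear signals. The code was tested on simulated data.

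The 9 genes, the 5 lists and the tests were chosen with earlier results of these data known. Named are the 9 genes, up to 4 passing genes of each list with the largest change, and the 5 genes nearest to Hscb. P-values measure the spread between the arrays. Alternatives covered filters, variance models, scalings, array weights, probe set kinds, a replicate block, representatives and omitted arrays.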

Additional observations from a re-analysis of the deposited data

How the results depend on the processing

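Over 274 refits of the 12 tested probe sets under the alternatives, 206 kept direction and side of the threshold, 44 lost the call, 14 gained one and 10 changed sign. The sign changes were those of uncalled probe sets: Glrx5 at 0.04 with cyclic loess, 0.00 without Upper-SP replicate 2, 0.05 without both arrays of number 2 and 0.08 without Lower-SP replicates 1 and 2, and Tfrc at 0.12 with cyclic loess, 0.08 with quantile normalization, 0.04 with median centring, 0.09 without Upper-SP replicate 3 and 0.05 and 0.07 without both arrays of number 1 and of number 3. With single arrays left out, Glrx5 ran from -0.38 to 0.00 and Tfrc from -0.23 to 0.09. Called members numbered 6, and with each array left out in turn 0 to 7. They numbered 11 with array weights, 1 with no filter, 0 with unmoderated statistics (5 at an unadjusted p under 0.05, limma), and 0, 0 and 10 without both arrays of number 1, 2 and 3 (5, 5 and 11 at an unadjusted p under 0.05). With cyclic loess 5 of the 12, not 9, had separate groups. The share over all tested probe sets with that scaling is not given here, so this drop cannot be set against it. The called list genes (17) ranged from 2 to 22 with single arrays left out, and were 9 without Lower-SP replicates 1 and 2, 36 with array weights, 10 with no filter, 6 with unmoderated statistics and 0, 0 and 29 without both arrays of number 1, 2 and 3 (18, 19 and 36 at an unadjusted p under 0.05). In the same order of settings, all called genes (2625) ranged from 695 to 3085 and were 1197, 5268, 1318, 892, 0, 63 and 4125, and all called probe sets (5520) ranged from 1666 to 6397 and were 2715, 10728, 2931, 1967, 0, 202 and 8331 (4667 probe sets and 2171 genes at an unadjusted p under 0.05 without number 1). Without number 2 and 3, 5066 and 10142 probe sets and 2353 and 5004 genes lay under that unadjusted p (limma). The cause was not tested. Without Lower-SP replicates 1 and 2, the 1 array left is assumed to vary like the others, and its calls support nothing here. Where arrays were left out, fewer samples entered the fit, and with no filter more probe sets were adjusted for.

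With the replicate number as a block, 5 members, 13 list genes, 1928 genes and 4180 probe sets were called. Across the tested probe sets same-numbered arrays did not deviate together (r = -0.051, -0.029 and -0.023). These correlations cannot show whether such arrays share more than a number, because single genes can still vary together. The block lowered the SE of 1427021_s_at of Fth1 from 0.57 to 0.21 and raised that of Glrx5 from 0.21 to 0.24. Log2 4 is a chosen level and not a detection call, so Hscb, 1442017_at of Nfs1 and Mms19, with Lower-SP arrays under it, have less certain fold changes than brighter genes.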
